A study of Mus musculus with 20 samples.

Results

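Cholesterol genes were followed across 4 groups of 5 male ob/ob mice, obese because the gene for leptin is defective, with liver RNA of all 20 measured. A list of 29 genes was taken: 20 called synthesis genes and 9 for the uptake, movement inside the cell, storage and export of sterols. The 20 encode enzymes of cholesterol synthesis or, for Ggps1, of a side branch of it. The array held 25 of them among its 19505 genes, each read by 1 probe set, and Acat2, Tm7sf2, Soat1 and Soat2 were not analysed here. Npc1l1, which takes up sterol from bile and gut, was left out as dim: its group means of 3.02 to 3.15 lay below the filter at log2 4.09 and below 4.49, the median of the negative-control probe sets on an average array. That left 24 tested genes, 18 of synthesis and 6 of movement and export. A single array was run per mouse on whole-liver RNA, and values are log2 signals unless said otherwise.

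Every mouse carried the ob/ob genotype, so there was no lean control. The groups were: filtered air; metformin, which the mice drank in their water; PM2.5, the fine particles of polluted air; and PM2.5 plus metformin, the last called the combined group. Exposure took place in a chamber, 6 h a day for 2 weeks, and mice were kept at 22 °C and 55% humidity on a 12 h light cycle with free food and water. The metformin label names no air, the metformin dose is given only as set by body weight, and the treatment text does not say whether mice without PM2.5 stayed in a chamber. The labels give no age, litter, batch or time of killing. Mice are numbered within each group in the order of deposit, so equal numbers pair no mice.

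Cells build cholesterol from acetyl-CoA: the mevalonate steps make isoprenoid units, which are joined to squalene, closed into a sterol ring and trimmed to cholesterol. The genes of these steps are switched on together by SREBP-2, a factor held back in the endoplasmic reticulum when sterols are plentiful, and NF-Y, which binds CCAAT boxes, is a known partner of SREBP at such promoters. Sterol that enters by endocytosis leaves the lysosome through Npc1 and moves between membranes on carriers such as Stard4. It leaves the liver cell through Abca1 to HDL or through Abcg5 and Abcg8 to bile. Sterol-sensing LXR receptors raise the genes of this export.

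The promoters of Mvd, Sc5d and Msmo1 are shown because these synthesis genes lay below filtered air without overlap in more than 1 comparison, as did Stard4, a carrier that is named only. The promoter of Hmgcs1 is shown because it held the sterol regulatory element searched for. Each is the 200 bases before the RefSeq start in build GRCm38.p6, in the direction of the gene, and capitals mark CCAAT on either strand (CCAAT or ATTGG) and, in Hmgcs1, TCACCCCAC. Mvd lies at chr8:122443423-122443622 on the minus strand, Sc5d at chr9:42264301-42264500 on the minus strand, Msmo1 at chr8:64733579-64733778 on the minus strand, and Hmgcs1 at chr13:119690151-119690350 on the plus strand.
Mvd: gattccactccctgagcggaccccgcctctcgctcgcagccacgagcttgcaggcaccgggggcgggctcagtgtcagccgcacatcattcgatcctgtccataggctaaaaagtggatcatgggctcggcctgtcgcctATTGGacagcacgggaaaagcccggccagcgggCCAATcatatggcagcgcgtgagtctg
Sc5d: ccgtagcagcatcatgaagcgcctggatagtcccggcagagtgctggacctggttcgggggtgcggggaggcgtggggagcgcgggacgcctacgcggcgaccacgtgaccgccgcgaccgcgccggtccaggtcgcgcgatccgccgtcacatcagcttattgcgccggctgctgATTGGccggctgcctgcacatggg
Msmo1: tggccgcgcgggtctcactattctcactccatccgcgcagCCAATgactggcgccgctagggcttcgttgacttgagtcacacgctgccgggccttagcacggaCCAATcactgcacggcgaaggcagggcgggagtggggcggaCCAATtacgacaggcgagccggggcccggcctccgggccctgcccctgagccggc
Hmgcs1: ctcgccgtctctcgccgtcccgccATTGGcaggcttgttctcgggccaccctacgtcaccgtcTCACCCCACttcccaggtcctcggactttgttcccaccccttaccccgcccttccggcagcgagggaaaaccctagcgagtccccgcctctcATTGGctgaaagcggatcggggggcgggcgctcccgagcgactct

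A RefSeq promoter window of 250 bases before to 50 after the start was at hand for 15 of the 18 synthesis genes on the array. All 15 held CCAAT on 1 strand or the other in at least 1 window, against 41.1% of the 27025 genes with a window and 43.3% of the 9527 tested genes with one. The windows of Mvk held 5 matches, those of Hmgcs1 and Nsdhl 4 each, and those of Sc5d, Pmvk, Lss and Cyp51 1 each. Windows on chromosome 18, which holds Stard4 and Npc1, were left out of this search and of all its counts. Among the other movement and export genes on the array, 4 of the 5 with a window held the box. The element TCACNCCAC was searched on both strands and occurred in Hmgcs1 alone of the 15, against 1.4% of genes with a window, and a form of the element that is 1 letter longer occurred in 0 of the 15, against 0.1%. These matches are letters in a window, and factor binding was not measured.

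Arrays 2 and 4 of the combined group stood apart from the others: their negative-control medians were 4.79 and 4.69, against 4.34 to 4.59 on the other 18 arrays. These medians spanned 4.36 to 4.43 in filtered air and 4.45 to 4.54 under metformin. They spanned 4.34 to 4.52 under PM2.5 and 4.44 to 4.79 for the combined arrays, and their part in the results was not tested beyond the fits with them as a covariate. The metformin and combined ranges did not overlap that of filtered air. In those 2 comparisons the covariate fits therefore cannot fully tell the covariate from the group. The lowest correlation within a group over the tested genes, 0.9720, was that of combined arrays 2 and 5. Array 5 had the lowest median correlation with its group, 0.9820, and the lowest array weight of the 20, 0.484, beside 0.491 and 0.555 for arrays 2 and 4. Counts and list medians of the combined group are given with and without arrays 2 and 4, as are the calls of single genes that leaving both out removed, and results without array 5 where they moved. Mice 2 and 4 were also each the lowest of the combined group in 9 of the 18 synthesis genes. Leaving them out therefore raises the combined mean of these genes. The 5 hepatocyte markers on the array had a summed level of 20.44 to 20.67 on the log2 scale over all 20 mice, and 0 of the 5 passed limma in any comparison, with 0 at an unadjusted p under 0.05. A gene is said to have risen or fallen where its limma p, adjusted over all 11703 tested genes, was under 0.05, and an error written with ± beside a difference is its standard error.

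Metformin against filtered air addressed the drug alone. Synthesis genes lay lower, with differences below 0 in 18 of 18 and a median of -1.37, against 49.6% of all genes below 0 and a median of 0.00. Of the 24 members 7 fell and 1 rose, that is 8 called against a background of 3.2% of all tested genes in either direction (1.91% lower, 1.29% higher). Those that fell were Pmvk, Mvd, Fdps, Nsdhl, Sc5d, Dhcr7 and Tmem97, and Npc1 rose. Mvd, Sc5d and Stard4 lay below filtered air in every mouse and Npc1 above it, against 3.6% of all genes lower and 3.22% higher without overlap. The count was 4 without filtered-air mouse 1, 2, 3 or 5 or metformin mouse 3 or 5, 14 without metformin mouse 2, and 2 (Mvd and Npc1) with the negative-control median as a covariate.

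PM2.5 against filtered air addressed the particles alone. The synthesis genes again lay mostly lower, in 17 of 18 with a median of -0.50 (all genes: 47.4% below 0, median 0.02), but only Mvd passed, 1 of 24 members against 5.28% of all genes called (2.56% lower, 2.72% higher). Mvd, Msmo1, Sc5d and Stard4 lay below every filtered-air mouse, 4 of 24 members against 3.44% of all genes. The 6 movement and export genes had a median difference of 0.13, and 0 of the 6 passed limma. An unadjusted p under 0.05 was seen in 3 of the 6 and in 2653 of all 11703 genes. The call of Mvd stood whichever mouse was left out, and the count became 2, with Npc1, when mouse 4 of either group was left out. It became 5 when the 10 mice were fitted alone, with Sqle, Msmo1, Stard4 and Abcg8 added. The wider spread of the metformin and combined groups does not enter that fit, and its part in the count was not tested. Both this comparison and the metformin one use the same filtered-air mice.

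Against filtered air, the combined group had 5 lower members (Mvd, Lbr, Msmo1, Sc5d and Stard4) and 3 higher (Npc1, Abcg8 and Abca1). These 8 of 24 stand against 35.4% of all genes called (16.4% lower, 18.9% higher), so that the share of members was near that of the whole array. The synthesis genes were below 0 in 18 of 18 with a median of -0.75 (all genes 48.8% and 0.01). Mvd, Msmo1 and Sc5d lay below every filtered-air mouse and Abcg8 above, against 9.13% and 11.9% of all genes. Without combined arrays 2 and 4 the median of the synthesis genes was -0.22, with 14 of 18 below 0 (all genes 46.7% and 0.04). The count was then 4 against 21.9% of all genes, with Mvd lower and Npc1, Abcg8 and Abca1 higher, and with the negative-control covariate it was 0. It was 5 without filtered-air mouse 5, combined mouse 2 or combined mouse 4.

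Metformin on top of PM2.5 was set against PM2.5 alone. In this comparison 1 of 24 members passed, Lbr, which fell, against 11.9% of all genes (4.79% lower, 7.07% higher). No member separated the groups without overlap, which 1.91% of all genes did downward and 4.49% upward. Differences were below 0 in 15 of 18 synthesis genes, with a median of -0.24 (all genes: 51.1% below 0, median -0.01). The call was lost without PM2.5 mouse 1, 3, 4 or 5 or combined mouse 2, 3 or 4, and Abca1 also passed without combined mouse 5, which made 2. Without combined arrays 2 and 4 the count was 0, against 1.78% of all genes, with 1 of the 24 at an unadjusted p under 0.05 (1824 of all 11703 genes). With these 2 mice left out, each the lowest of its group in 9 synthesis genes, the direction of the synthesis genes also turned. Of the 18, 16 were then above 0, all but Ggps1 and Lbr, with a median of 0.27 (all genes 0.02). With all arrays, the difference of the combined group from PM2.5 for Abca1 was 0.44 ± 0.15 (limma adjusted p = 0.0579).

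With metformin in both groups, the combined group lay above the metformin group for Pmvk, Dhcr7 and Abcg8, which rose. These 3 of 24 members stand against 16.5% of all genes called (9.82% higher, 6.72% lower). No member separated these groups without overlap either, against 5.6% of all genes upward and 3.82% downward. The synthesis genes had a median difference of 0.30, with 3 of 18 below 0 (all genes: 48.2% below 0, median 0.02). The count was 7 without metformin mouse 2, 1 without metformin mouse 5 or combined mouse 3, and 0 when the 10 mice were fitted alone. Without combined arrays 2 and 4 it was again 3, with Nsdhl in place of Abcg8, against 4.34% of all genes. The median of the synthesis genes, for which mice 2 and 4 were the lowest of their group, was then 0.88. Of these 18 genes, 1 was below 0 (all genes: 44.2% below 0, median 0.05).

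The interaction asks whether the metformin difference itself depended on PM2.5: it is the combined group minus PM2.5, less metformin minus filtered air. It was above 0 in 16 of 18 synthesis genes, with a median of 0.87 against 0.01 over all genes, of which 49.3% lay below 0. By limma 0 of 24 members passed, against 0.188% of all genes (0.162% higher, 0.0256% lower). An unadjusted p under 0.05 was seen in 10 of the 24 and in 1537 of all 11703 genes. The lowest adjusted p was 0.128, for Mvd with an interaction of 2.17 ± 0.61 and for Dhcr7 with 1.98 ± 0.55. Npc1 had -1.08 ± 0.31 (limma adjusted p = 0.139), and it passed without combined mouse 5, while Mvd and Pmvk passed with array weights. Without combined arrays 2 and 4, the lowest of their group in the synthesis genes, the interaction was above 0 in 17 of those 18, with a median of 1.63 (0.04 over all genes). By limma 0 of 24 members then passed, with 16 at an unadjusted p under 0.05, against 1205 of all 11703 genes. A difference between the metformin response with and without PM2.5 was therefore not shown for any member by the test as designed.

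**Figure D1:**
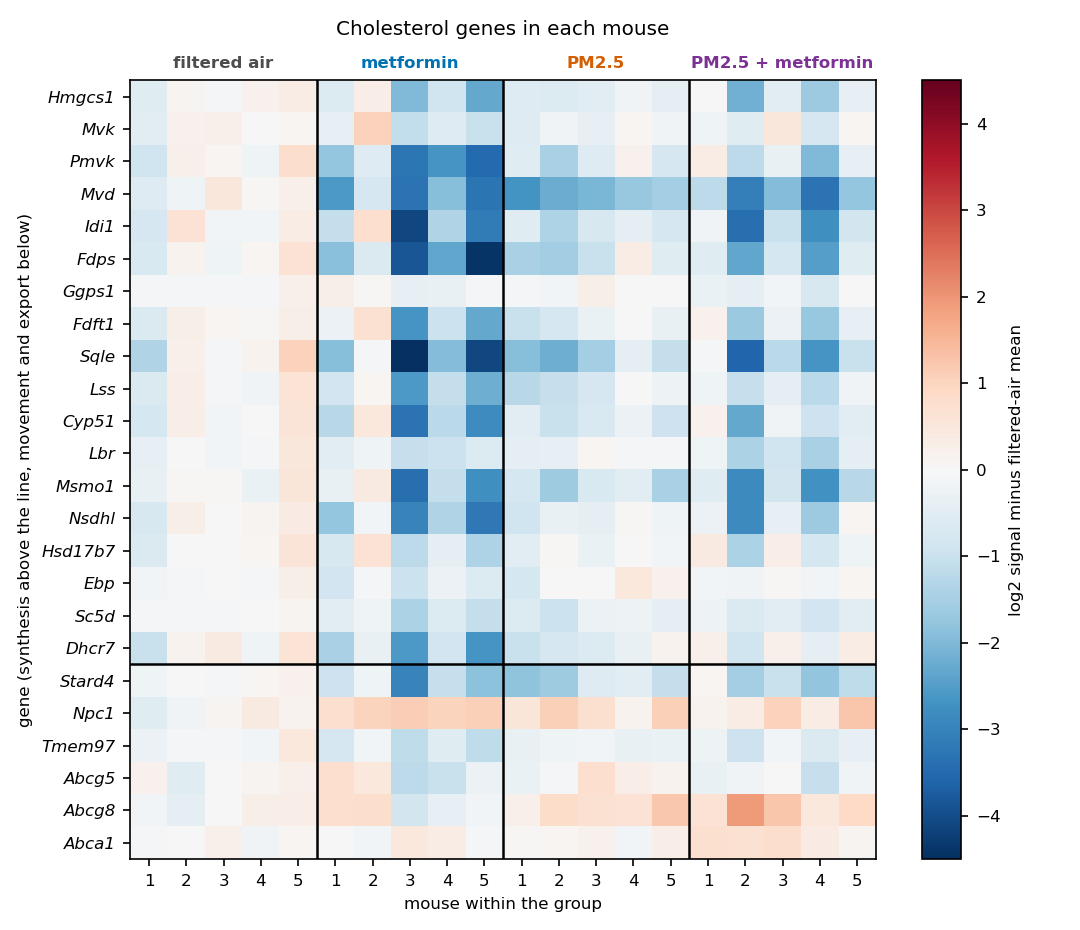
Heat map of the log2 signal of each of the 24 tested genes (rows) in each of the 20 mice (columns, mice 1 to 5 in each group) minus the gene's filtered-air mean. Blue cells are below and red cells above that mean: Mvd is blue in all 15 mice given metformin, PM2.5 or both, metformin mice 3 and 5 are the darkest columns of the synthesis genes, and Npc1 is red in the same 15 mice.

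Of the 7 tested mevalonate genes, Mvd, Pmvk and Fdps fell with metformin. Mvd encodes the decarboxylase that makes isopentenyl diphosphate, the first isoprenoid unit. Its signals were 8.03, 8.42, 9.15, 8.68 and 8.86 in filtered air and 6.04, 7.86, 5.29, 6.72 and 5.35 with metformin. They were 5.93, 6.39, 6.56, 6.93 and 7.11 with PM2.5 and 7.43, 5.56, 6.69, 5.30 and 6.90 in the combined group. All 15 mice of the last 3 groups lay below the lowest filtered-air mouse. Mvd fell by 2.38 ± 0.43 with metformin (5.20-fold, limma adjusted p = 0.00368). It fell by 2.05 ± 0.43 with PM2.5 (4.13-fold, adjusted p = 0.00866). It fell by 2.25 ± 0.43 in the combined group (4.76-fold, adjusted p = 0.000457). The combined group differed from the metformin group by 0.13 ± 0.43 (95% interval -0.76 to 1.02) and from PM2.5 by -0.21 (interval -1.09 to 0.68). Its mean over the 20 arrays lay below 8.36, the signal that 5% of negative-control probe sets exceeded on an average array, so that part of each signal can be background.

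Pmvk, the phosphomevalonate kinase 1 step earlier, was lower with metformin than in both filtered air and the combined group. Its signals were 9.97, 11.09, 10.95, 10.69 and 11.68 in filtered air and 9.12, 10.30, 7.64, 8.22 and 7.37 with metformin. With PM2.5 they were 10.32, 9.41, 10.30, 11.08 and 10.14, and in the combined group 11.22, 9.69, 10.53, 8.88 and 10.51. Metformin mouse 2 lay inside the filtered-air range and the other 4 below it, as did PM2.5 mouse 2 and combined mice 2 and 4. The signals of metformin mice 3, 4 and 5 also lay below 8.36, so that part of each can be background. Pmvk fell by 2.35 ± 0.48 with metformin (5.09-fold, limma adjusted p = 0.00964) and was higher in the combined group than with metformin by 1.64 ± 0.48 (3.11-fold, adjusted p = 0.0233). That second call was lost without metformin mouse 3 or 5 or combined mouse 1 or 3, with adjusted p up to 0.0737. Against PM2.5 the combined group differed by -0.08 (interval -1.07 to 0.91).

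Fdps, the synthase of farnesyl diphosphate, from which squalene and several other isoprenoids are made, had the largest difference of any member under metformin. Its signals were 10.51, 11.34, 11.03, 11.28 and 11.85 in filtered air and 9.31, 10.54, 7.34, 8.85 and 6.79 with metformin. They were 9.75, 9.63, 10.22, 11.53 and 10.67 with PM2.5, and 10.65, 8.86, 10.40, 8.74 and 10.65 in the combined group. Metformin mice 3 and 5 lay lowest of the 20, and metformin mouse 2 just inside the filtered-air range. Both of those lowest signals were under 8.36, so that part of each can be background. Fdps fell by 2.64 ± 0.56 with metformin (6.22-fold, limma adjusted p = 0.0129). The combined group lay 1.30 ± 0.56 above the metformin group (limma adjusted p = 0.113), which did not pass, and PM2.5 alone gave -0.84 ± 0.56.

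The other mevalonate genes did not pass in any comparison. Idi1, the isomerase of the isoprenoid unit, had differences from filtered air of -1.78 with metformin (limma adjusted p = 0.147), -0.77 with PM2.5 and -1.62 in the combined group (adjusted p = 0.0631). Its signals ran from 10.10 to 14.95 within the metformin group, wider than the 13.45 to 14.84 of filtered air. Hmgcs1, which makes HMG-CoA, had -1.09 with metformin, -0.46 with PM2.5 and -0.92 in the combined group. Filtered-air mice ran from 16.55 to 17.42 and metformin mice from 14.81 to 17.40. PM2.5 mice ran from 16.50 to 16.95 and combined mice from 14.94 to 17.12. Mvk, the mevalonate kinase, stayed between -0.40 and -0.19 in those 3 comparisons, with a mean signal that also lay below 8.36. The range of 4.44 to 6.57 in metformin mice took in the whole of filtered air (5.08 to 5.77), and PM2.5 and combined mice spanned 4.96 to 5.63 and 4.78 to 6.05. Ggps1, which makes geranylgeranyl diphosphate for protein prenylation rather than sterol, had the smallest metformin difference of the 18, -0.09 (interval -0.40 to 0.22). All 4 ranges overlapped: filtered-air mice spanned 9.32 to 9.66, metformin mice 9.04 to 9.67, PM2.5 mice 9.29 to 9.69 and combined mice 8.71 to 9.44.

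**Figure D2:**
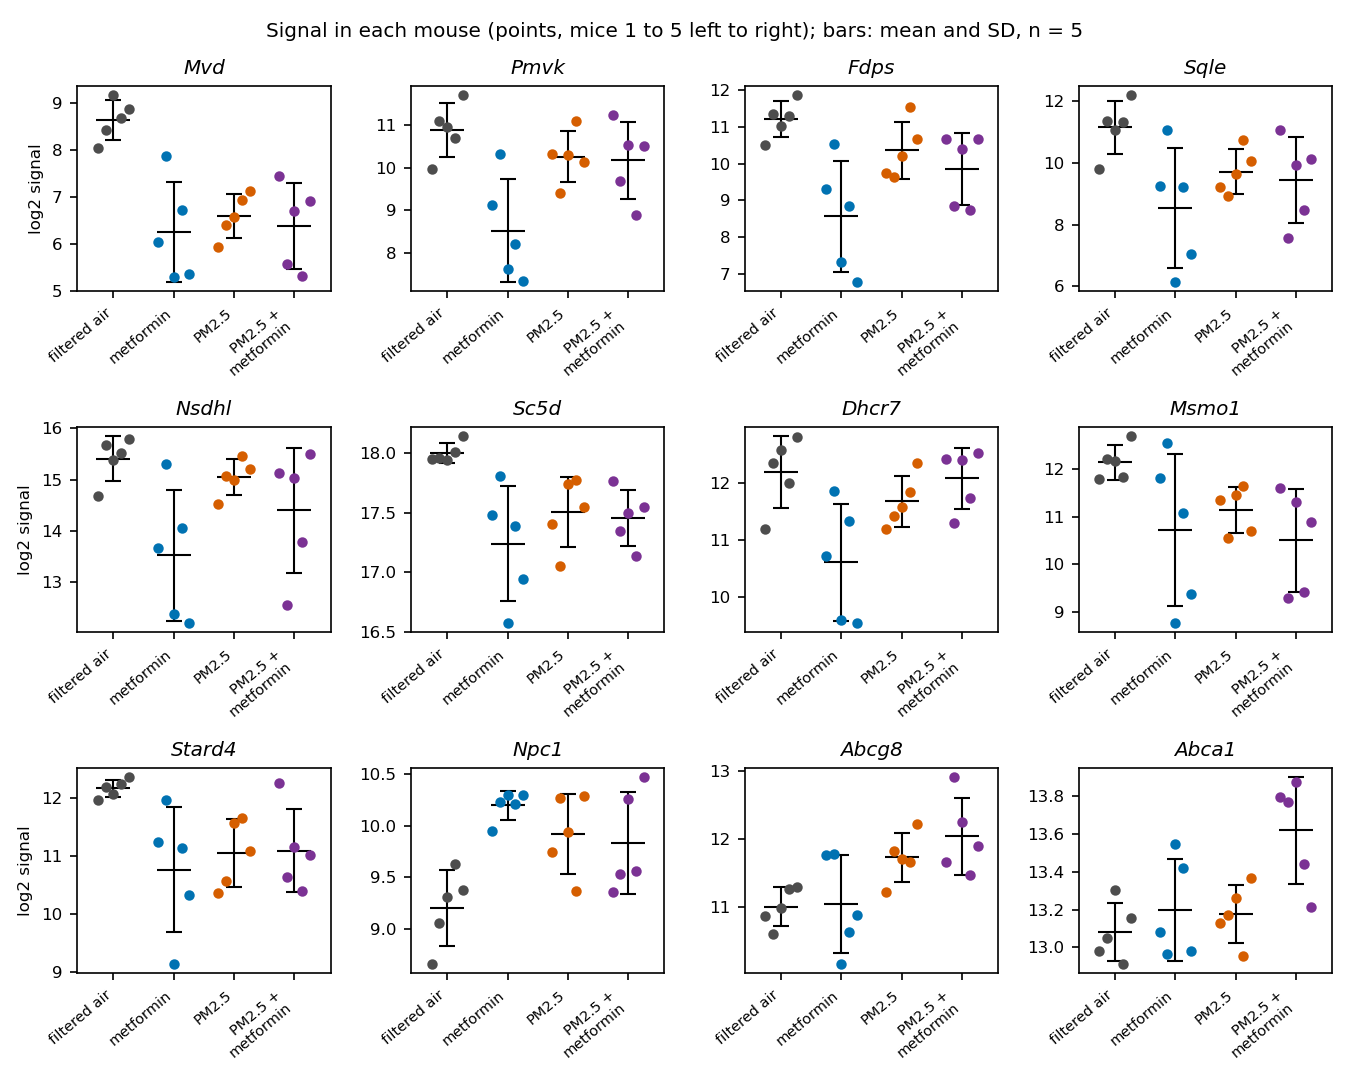
Log2 signal of 12 members in each mouse (points, mice 1 to 5 from left to right within a group), with the mean and SD of 5 mice as bars. The axes do not start at 0 and differ between panels. Mvd has no overlap between filtered air and the other 3 groups, Npc1 none between filtered air and metformin, and metformin mouse 2 lies near filtered air in most synthesis panels.

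Of the squalene and sterol steps, Nsdhl, Sc5d and Dhcr7 fell with metformin. Sc5d, a desaturase of the sterol ring, had the tightest filtered-air values of the synthesis genes: 17.96, 17.96, 17.94, 18.02 and 18.14 in filtered air and 17.48, 17.81, 16.57, 17.39 and 16.95 with metformin. With PM2.5 it was 17.41, 17.06, 17.74, 17.78 and 17.55, and in the combined group 17.77, 17.34, 17.50, 17.14 and 17.55. Every filtered-air mouse lay above all 15 others. Sc5d fell by 0.77 ± 0.19 with metformin (1.70-fold, limma adjusted p = 0.0295) and by 0.54 ± 0.19 in the combined group (1.46-fold, adjusted p = 0.0298), and gave -0.50 ± 0.19 with PM2.5 (adjusted p = 0.121). The metformin call was lost without filtered-air mouse 1, 2, 3 or 5 or metformin mouse 3 or 5 (adjusted p up to 0.0907). The combined call was lost without filtered-air mouse 5 or combined mouse 2 or 4 (up to 0.0838), and without both of those arrays the difference was -0.40 (limma adjusted p = 0.196).

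Nsdhl, a dehydrogenase that helps remove methyl groups from the sterol ring, was 14.68, 15.66, 15.39, 15.52 and 15.79 in filtered air and 13.66, 15.30, 12.39, 14.06 and 12.21 with metformin. It was 14.52, 15.07, 14.99, 15.46 and 15.21 with PM2.5, and 15.13, 12.55, 15.04, 13.78 and 15.51 in the combined group. Metformin mouse 2 lay inside the filtered-air range, and combined mice 2 and 4 lay below it. Nsdhl fell by 1.89 ± 0.51 with metformin (3.70-fold, limma adjusted p = 0.0445), a call that remained only when metformin mouse 2 was the one left out and was lost in the other 9 of 10 fits without 1 mouse, with adjusted p up to 0.127.

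Dhcr7, the reductase that completes cholesterol in 1 branch of the pathway, was 11.20, 12.35, 12.59, 12.01 and 12.81 in filtered air and 10.73, 11.86, 9.61, 11.33 and 9.55 with metformin. It was 11.19, 11.43, 11.58, 11.84 and 12.35 with PM2.5, and 12.43, 11.29, 12.41, 11.75 and 12.53 in the combined group. Metformin mice 2 and 4 lay inside the filtered-air range, and all 5 combined mice did. Dhcr7 fell by 1.58 ± 0.39 with metformin (2.98-fold, limma adjusted p = 0.0288) and rose by 1.47 ± 0.39 from metformin to the combined group (2.77-fold, adjusted p = 0.0143). The combined group differed from filtered air by -0.11 (interval -0.92 to 0.70). The metformin call was lost without filtered-air mouse 2, 3 or 5 or metformin mouse 3 or 5 (adjusted p up to 0.0914), while the rise in the combined group stood in all 10 such fits and missed the threshold, at 0.0508, in the fit of those 10 mice alone.

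Msmo1, an oxidase that helps remove methyl groups from the ring, and Lbr, a sterol reductase that also anchors chromatin at the nuclear envelope, were called in the combined group. Msmo1 was 11.80, 12.21, 12.18, 11.83 and 12.69 in filtered air and 11.82, 12.56, 8.76, 11.08 and 9.38 with metformin. It was 11.35, 10.56, 11.45, 11.64 and 10.70 with PM2.5, and 11.61, 9.28, 11.31, 9.41 and 10.88 in the combined group. No PM2.5 or combined mouse reached the lowest filtered-air value, while metformin mice 1 and 2 lay within that range. Msmo1 fell by 1.64 ± 0.56 in the combined group (3.12-fold, limma adjusted p = 0.0262). With PM2.5 it gave a difference of -1.003 ± 0.559 (adjusted p = 0.295) and -1.42 ± 0.56 with metformin (adjusted p = 0.165). The combined call was lost without filtered-air mouse 5 or combined mouse 2 or 4, and without both of those arrays the difference was -0.87 (adjusted p = 0.300).

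Lbr was 9.04, 9.44, 9.29, 9.35 and 9.92 in filtered air and 8.92, 9.21, 8.38, 8.45 and 8.78 with metformin. It was 9.02, 9.03, 9.48, 9.32 and 9.31 with PM2.5, and 9.21, 8.00, 8.51, 7.95 and 8.96 in the combined group. Combined mice 2 and 4 were the lowest of the 20 and lay under 8.36, so that part of their signals can be background. Lbr fell by 0.88 ± 0.22 in the combined group against filtered air (1.85-fold, limma adjusted p = 0.00428) and by 0.71 ± 0.22 against PM2.5 (1.63-fold, adjusted p = 0.0433). Without combined arrays 2 and 4 the differences were -0.52 (limma adjusted p = 0.0873) and -0.34 (adjusted p = 0.480), and neither passed.

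Sqle, the oxidase that starts ring closure and a rate-limiting step, had the next largest metformin difference after Fdps but a wide spread. Its 5 metformin mice ran from 6.14 to 11.05, against 9.79 to 12.18 in filtered air, and the difference was -2.61 ± 0.72 (limma adjusted p = 0.0503). Signals under 8.36, which can be part background, were those of metformin mice 3 and 5 and combined mouse 2. PM2.5 gave -1.43 and the combined group -1.71 (adjusted p = 0.0711). Lss, the cyclase that closes the ring, and Cyp51, the demethylase that follows, gave -1.32 (adjusted p = 0.0628) and -1.62 (adjusted p = 0.0878) with metformin. Fdft1, the squalene synthase, gave -1.10, and Hsd17b7 and Ebp, later steps of ring trimming, -0.61 and -0.57. Filtered air and metformin overlapped in each of these. Lss ran from 10.77 to 12.04 in filtered air and 8.83 to 11.51 with metformin, and Cyp51 from 13.82 to 15.18 and 11.29 to 15.08. Fdft1 ran from 14.30 to 15.25 in filtered air and 12.32 to 15.66 with metformin, and Hsd17b7 from 13.50 to 14.74 and 12.77 to 14.79. Ebp lay at 13.94 to 14.16 in the combined group, overlapping the 13.97 to 14.36 of filtered air. None of these 6 genes passed in any of the comparisons with filtered air, in limma with all groups.

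**Figure D3:**
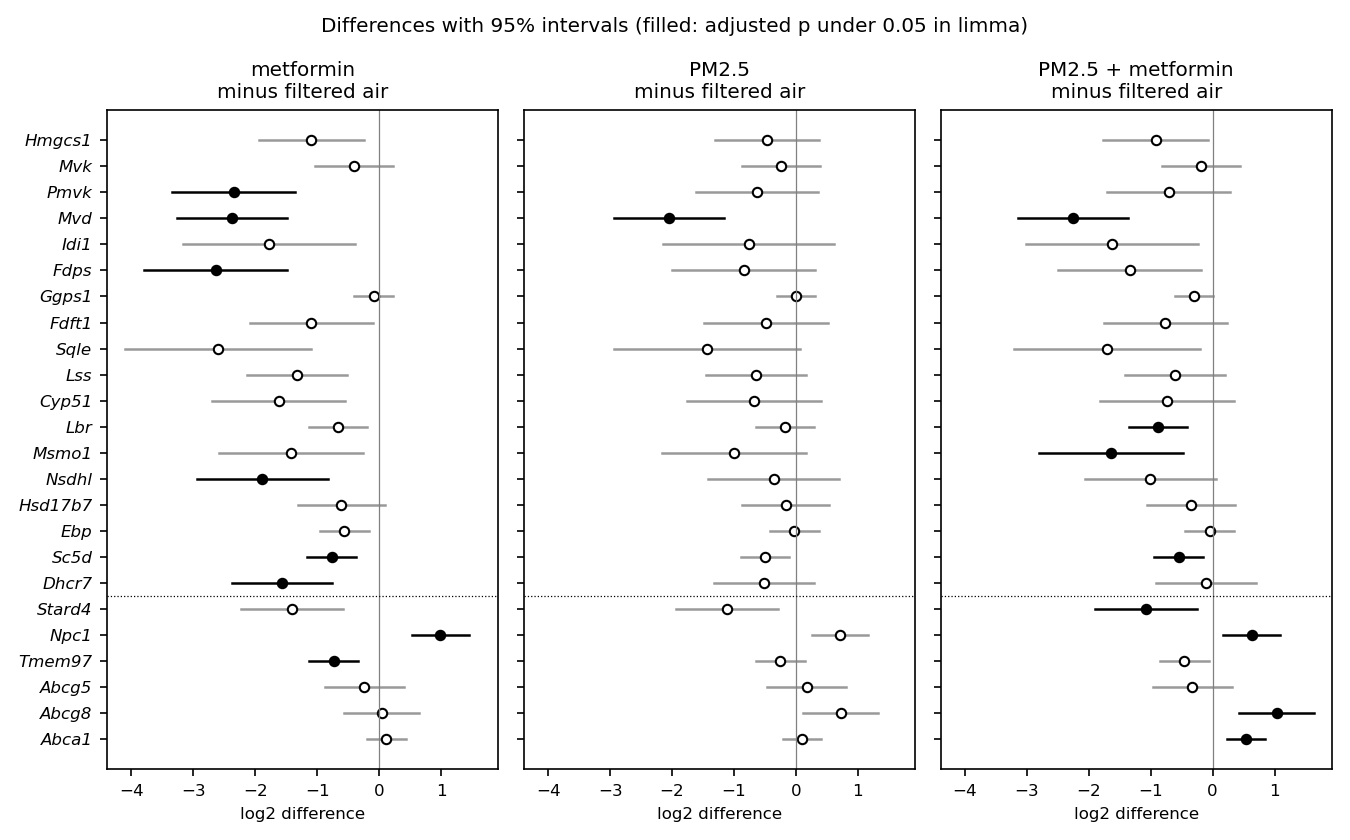
Log2 difference from filtered air (points) with its 95% interval (lines) for the 24 tested genes, in limma, with metformin, PM2.5 and both. Filled points had an adjusted p under 0.05: 8 with metformin, 1 with PM2.5 and 8 with both. The dotted line parts synthesis genes (above) from movement and export genes (below).

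Genes that move sterol inside the cell went in both directions. Npc1 was 8.66, 9.06, 9.31, 9.63 and 9.37 in filtered air and 9.95, 10.22, 10.30, 10.21 and 10.29 with metformin. It was 9.75, 10.26, 9.93, 9.37 and 10.29 with PM2.5, and 9.35, 9.53, 10.25, 9.56 and 10.47 in the combined group. All metformin mice, mouse 2 included, lay above filtered air, whereas the groups with PM2.5 overlapped it. Npc1 rose by 0.99 ± 0.22 with metformin (1.99-fold, limma adjusted p = 0.0174) and by 0.63 ± 0.22 in the combined group (1.55-fold, adjusted p = 0.0301), and gave 0.71 ± 0.22 with PM2.5 (adjusted p = 0.0584). Leaving out filtered-air mouse 1 took the metformin call just past the threshold (adjusted p = 0.0583). The combined one was lost without filtered-air mouse 1 or 2 or combined mouse 3 or 5 (up to 0.0982).

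Stard4, a soluble sterol carrier that is itself a known SREBP-2 target, went with the synthesis genes. It was 11.96, 12.19, 12.07, 12.23 and 12.35 in filtered air and 11.23, 11.96, 9.14, 11.14 and 10.33 with metformin. It was 10.36, 10.57, 11.57, 11.66 and 11.08 with PM2.5, and 12.25, 10.64, 11.15, 10.39 and 11.01 in the combined group. Combined mouse 1 lay within filtered air and the other 4 below it. Stard4 fell by 1.07 ± 0.40 in the combined group (2.10-fold, limma adjusted p = 0.0396), a call lost in 9 of 10 fits without 1 mouse, all but the one without combined mouse 1 (adjusted p up to 0.111). With combined arrays 2 and 4 left out, its difference was -0.69 (limma adjusted p = 0.285). It gave -1.40 ± 0.40 with metformin (adjusted p = 0.0533) and -1.11 ± 0.40 with PM2.5 (adjusted p = 0.0967), neither of which passed although the groups did not overlap. Metformin mouse 2 and the lowest filtered-air mouse were both at 11.96 when rounded.

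Tmem97, an endoplasmic reticulum protein known to bind Npc1 and lower its level, was 14.50, 14.71, 14.72, 14.64 and 15.24 in filtered air and 14.02, 14.65, 13.63, 14.24 and 13.62 with metformin. With PM2.5 it was 14.43, 14.59, 14.64, 14.44 and 14.47, and in the combined group 14.55, 13.82, 14.64, 14.13 and 14.38. Metformin mouse 2 lay inside the filtered-air range and the other 4 below it. Tmem97 fell by 0.73 ± 0.19 with metformin (1.66-fold, limma adjusted p = 0.0387), and 7 of the 10 fits without 1 mouse lost the call (all but those without filtered-air mouse 4 or metformin mouse 2 or 4), with adjusted p up to 0.112. The combined group gave -0.46 ± 0.19 (adjusted p = 0.0661).

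Export genes were called only where the combined group was compared, Abcg8 and Abca1, both higher. Abcg5 and Abcg8 encode the 2 parts of the sterol exporter and face away from each other on chromosome 17, so the stretch between their starts, chr17:84683012-84683120 on the plus strand, is shown because Abcg8 was called and its partner was not. It is 109 bases long in GRCm38.p6 from RefSeq and has no capitals, since no CCAAT or sterol element was found inside it (a CCAAT box ends on the base before it). Another RefSeq start of Abcg8 lies inside the Abcg5 gene.
Abcg5-Abcg8 gap: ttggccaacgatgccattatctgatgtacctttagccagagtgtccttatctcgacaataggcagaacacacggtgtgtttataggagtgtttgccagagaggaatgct

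Abcg8 was 10.88, 10.60, 10.98, 11.26 and 11.30 in filtered air and 11.77, 11.79, 10.16, 10.63 and 10.88 with metformin. It was 11.23, 11.82, 11.70, 11.67 and 12.23 with PM2.5, and 11.67, 12.91, 12.25, 11.47 and 11.90 in the combined group. Every combined mouse lay above filtered air, whereas metformin mice lay above, within and below its range. Abcg8 rose by 1.04 ± 0.29 in the combined group against filtered air (2.05-fold, limma adjusted p = 0.00864) and by 0.99 ± 0.29 against metformin (1.99-fold, adjusted p = 0.0238). The call against metformin was lost without metformin mouse 3, 4 or 5 or combined mouse 2 or 3 (adjusted p up to 0.0761) and without combined arrays 2 and 4 together (0.89, adjusted p = 0.0941). PM2.5 alone gave 0.73 ± 0.29 (adjusted p = 0.140).

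Abcg5 did not pass in any comparison: its differences from filtered air were 0.17 with PM2.5, -0.24 with metformin and -0.33 (interval -0.97 to 0.31) in the combined group. Its filtered-air mice ran from 13.97 to 14.78 and its combined mice from 13.51 to 14.56, so the groups overlapped. The difference between both partners was not tested.

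Abca1 was 12.98, 13.05, 13.30, 12.91 and 13.16 in filtered air and 13.08, 12.96, 13.55, 13.42 and 12.98 with metformin. It was 13.13, 13.17, 13.26, 12.95 and 13.37 with PM2.5, and 13.80, 13.77, 13.88, 13.44 and 13.21 in the combined group. Of the combined mice, 4 lay above every filtered-air mouse and mouse 5 within that range. Abca1 rose by 0.54 ± 0.15 in the combined group (1.45-fold, limma adjusted p = 0.0081), a call that stood whichever mouse was left out. Macrophages also express Abca1. The summed level of 11 Kupffer cell and macrophage markers ran from 11.60 to 15.11 in the combined group and 14.02 to 14.98 in filtered air, and 6 of the 11 fell and 0 rose in limma, where 16.4% of all genes fell. Against PM2.5 8 of the 11 fell, where 4.79% of all genes did. With combined arrays 2 and 4 left out, 2 of the 11 fell and 1 rose against filtered air, where 21.9% of all genes were called. Against PM2.5 1 of the 11 then fell, where 1.78% of all genes were called. The same sum ran from 13.48 to 13.98 with metformin and 14.34 to 15.18 with PM2.5, where 0 of the 11 passed limma against filtered air. An unadjusted p under 0.05 was seen in 1 and 3 of the 11, against 2185 and 2653 of all 11703 genes. The sum of 8 endothelial markers ran from 12.41 to 13.91 in the combined group against 13.66 to 14.12 in filtered air. Of the 8, 3 fell, where 16.4% of all genes fell, or 1 without combined arrays 2 and 4, where 21.9% were called. The part of these cells in the results was not tested, and in whole liver fewer cells of a type and less RNA per cell cannot be told apart.

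Set against each other, the synthesis mean lay below that of movement and export in each of the 3 groups given metformin, PM2.5 or both. The movement and export mean itself was -0.20 with metformin, and 0.06 with PM2.5 and in the combined group. Over the 18 synthesis genes the mean deviation from filtered air was -1.02, 0.08, -2.51, -1.16 and -2.30 in metformin mice 1 to 5. It was -0.90, -0.92, -0.58, -0.16 and -0.49 with PM2.5 and -0.15, -1.78, -0.46, -1.57 and -0.42 in the combined group. The filtered-air mice themselves ran from -0.60 to 0.46, so metformin mouse 2, PM2.5 mice 3, 4 and 5 and combined mice 1, 3 and 5 lay inside that range. For the 6 movement and export genes the same mean stayed nearer 0: -0.77 to 0.31 for the metformin mice, -0.27 to 0.27 for the PM2.5 mice and -0.38 to 0.33 for the combined mice. That mean takes in genes that went in opposite directions. With metformin 3 of the 6 were below 0, from -1.40 for Stard4 to 0.99 for Npc1. The synthesis mean minus the movement and export mean was -1.18 ± 0.68 (SD, n = 5) with metformin, -0.67 ± 0.29 with PM2.5 and -0.93 ± 0.60 in the combined group, against 0 ± 0.30 in filtered air. In combined mice 1, 3 and 5 alone it was -0.55 ± 0.23 (SD, n = 3). The difference was below 0 in all 15 mice given metformin, PM2.5 or both. It ran from -0.43 to 0.33 in filtered air, however, and metformin mouse 2, PM2.5 mouse 4 and combined mouse 1 lay inside that range. The values are a description with no test.

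**Figure D4:**
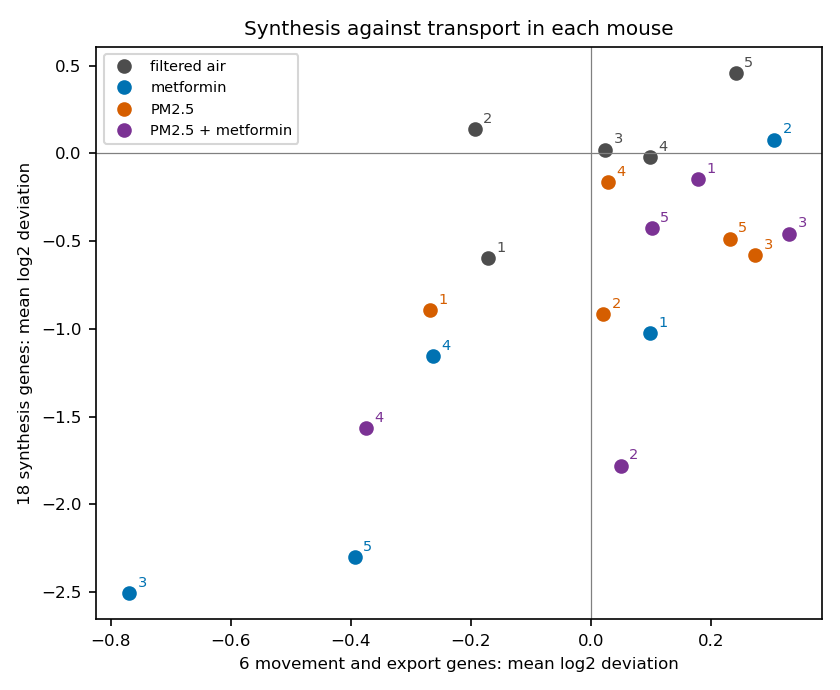
Mean deviation from the filtered-air mean (log2) of the 18 synthesis genes (vertical axis) against that of the 6 movement and export genes (horizontal axis), 1 point per mouse, labelled with its number. Metformin mice 3 and 5 lie lowest, at -2.51 and -2.30, and metformin mouse 2 lies at 0.08, among the filtered-air mice.

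Within groups the synthesis genes kept a common order of mice. Metformin mouse 2 had the highest signal of its group in 17 of 18 synthesis genes, against 18.1% of all genes tested. Metformin mouse 3 was lowest in 12 of them and mouse 5 in the other 6. In filtered air mouse 1 was lowest in 17 (23.8% of all genes) and mouse 5 highest in 15 (28.4%). PM2.5 mouse 4 was highest in 13, with mice 1 and 2 lowest in 9 each, and combined mouse 1 was highest in 12, with mice 2 and 4 lowest in 9 each. Such an order was thus seen in the untreated mice too.

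In these genes metformin mice had larger SDs than filtered-air mice. The SD of a synthesis gene was above its filtered-air SD in 18 of 18 with metformin, 16 of 18 in the combined group and 8 of 18 with PM2.5. The same shares over all tested genes were 53.6%, 64.4% and 54.7%. In the 3 combined mice other than 2 and 4, the SD was above filtered air in 5 of 18 (48.2% of all genes), with a median of 0.32. The median SD of the synthesis genes was 0.43 in filtered air, 1.08 with metformin, 0.39 with PM2.5 and 0.89 in the combined group. Larger SDs were not limited to synthesis. Of the 6 movement and export genes, the SD was above filtered air in 5 with metformin, 5 with PM2.5 and 6 in the combined group. Their median SD was 0.28 in filtered air and 0.58 with metformin. Npc1 was the only exception of these 6 with metformin, with SDs of 0.37 in filtered air and 0.14 with metformin.

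Other genes of sterol handling were taken as 6 further lists. Of 5 tested genes of SREBP control, Insig1, which holds the SREBP complex in the endoplasmic reticulum and is itself switched on by SREBP, lay below filtered air in every mouse of the other 3 groups. Its difference was -1.69 ± 0.49 with metformin (limma adjusted p = 0.0578) and -1.10 ± 0.49 with PM2.5 (adjusted p = 0.184). It fell by 1.60 ± 0.49 in the combined group (limma adjusted p = 0.0141), where 16.4% of all genes fell. Srebf2, the gene of SREBP-2 itself, was not called against filtered air. It rose by 0.76 ± 0.26 from metformin to the combined group (limma adjusted p = 0.0495), where 9.82% of all genes rose. Scap, the escort of SREBP, rose by 0.96 ± 0.20 in that comparison (adjusted p = 0.00415) and by 0.66 ± 0.20 in the combined group against filtered air (adjusted p = 0.016), where 18.9% of all genes rose. When combined arrays 2 and 4 were left out, only the first of these 2 calls of Scap stood, at 0.89 (limma adjusted p = 0.0437), where 4.34% of all genes were called. Insig1 then differed from filtered air by -1.26 (adjusted p = 0.0824) and Srebf2 from metformin by 0.85 (adjusted p = 0.117).

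Genes of the receptor and HDL lists rose with PM2.5, where 2.72% of all genes rose, and none passed with metformin. This contrast is one of calls. The median difference of the receptor and lysosome genes was 0.57 with metformin and 0.38 with PM2.5. That of the efflux and HDL genes was 0.19 and 0.25 (all genes 0.00 and 0.02). PM2.5 was not tested against metformin directly. Of 5 receptor and lysosome genes, 2 rose with PM2.5: Scarb1, the hepatic HDL receptor, by 0.79 ± 0.19 (limma adjusted p = 0.0187), and Mylip, a ubiquitin ligase that degrades lipoprotein receptors and an LXR target, by 1.01 ± 0.23 (adjusted p = 0.0149). Of 6 efflux and HDL genes 1 rose, Lcat, the plasma enzyme that esterifies cholesterol on HDL, by 0.69 ± 0.19 (adjusted p = 0.0388). With metformin 0 genes of the 6 lists passed limma, although 4 of the 5 receptor and lysosome genes had an unadjusted p under 0.05, as did 2185 of all 11703 genes. In the combined group against filtered air Scarb1, Lrp1 and Osbp rose by 1.28 ± 0.19, 1.66 ± 0.24 and 1.21 ± 0.22, and Lcat also rose, in a comparison that called 35.4% of all genes. Lrp1, Osbp and Lcat rose in the combined group against PM2.5 as well, where 7.07% of all genes rose, and so did all 4 against metformin, where 9.82% did. All 4 stayed called against filtered air without combined arrays 2 and 4, by 1.15, 1.14, 0.90 and 1.35 for Scarb1, Lrp1, Osbp and Lcat. Against PM2.5 only Lrp1 of the 3 was then called, by 0.76 (limma adjusted p = 0.0324), and against metformin only Lcat of the 4, by 0.76 (adjusted p = 0.0496). The shares of all genes called were then 21.9% against filtered air, 1.78% against PM2.5 and 4.34% against metformin.

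Of 4 genes of bile acid synthesis, the way cholesterol is broken down, 1 rose in the combined group against PM2.5, where 7.07% of all genes rose. This was Cyp7a1, the rate-limiting enzyme, by 1.61 ± 0.38 (limma adjusted p = 0.00934), with means of 16.79 and 15.18. Its difference without combined arrays 2 and 4 was 1.68 (limma adjusted p = 0.053), which did not pass. It gave -0.80 ± 0.38 with PM2.5 (adjusted p = 0.210) and 0.51 with metformin against filtered air, and neither passed. Of the other mevalonate branches, Dhdds and Nus1, the subunits of the enzyme that makes dolichol, fell from metformin to the combined group by 0.68 ± 0.19 (adjusted p = 0.0177) and 0.86 ± 0.17 (adjusted p = 0.00302), where 6.72% of all genes fell. With combined arrays 2 and 4 left out, the difference of Nus1 was -0.72 (limma adjusted p = 0.0413), where 4.34% of all genes were called, while that of Dhdds, -0.44, did not pass.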

How the data were processed

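The authors deposited 1 log2 signal for each probe set and mouse, and the submitters' processing notes name Affymetrix Expression Console; the version, summary method and background correction are not given in the sources used here. The identifiers are not those of the array named in the series text, and gene symbols came from the platform annotation in which they occur. The table has 28846 probe sets with 6640 controls among them. Of the remaining 22206, 19572 had 1 gene symbol, 0 had several and 2634 had none, and 55 of the 19505 genes had several probe sets, of which the one with the highest mean was taken. The dimmest genes, with means up to the 40th percentile of gene means (4.09 on the log2 scale), were dropped, which left 11703. The precision is limited by the number of arrays.

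Group differences were estimated from these log2 values with limma 3.58.1 in R 4.3.3 in a single fit with a mean for each of 4 groups, moderated by eBayes (5.66 prior and 16 residual degrees of freedom). The tests were two-sided, with Benjamini-Hochberg adjustment over all 11703 genes and a threshold of 0.05. The model takes 1 variance per gene over the 4 groups, although the synthesis genes varied more with metformin. There were 5 comparisons between groups and 1 interaction. The comparisons share groups, so they are not independent of each other. The script was tested on simulated data.

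The 29 members, the other lists and the tests were chosen with earlier results of these data known. Values in every mouse are given for each member called in at least 1 comparison, ranges and counts for the others, and genes of the other lists are named where called. Insig1 and Cyp7a1 are also described in comparisons where they were not called. Promoter windows came from RefSeq, build GRCm38.p6, and were searched on both strands, without those on chromosome 18. Alternatives changed the filter, the scaling (quantile or median), the choice among probe sets of a gene, the array weights or the eBayes options, fitted the compared groups alone, added each array's negative-control median as a covariate, or left out mice.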

Additional observations from a re-analysis of the deposited data

Results flagged for a closer look

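Checks were made on each of the 24 tested members and on the synthesis and the movement and export means, in each of the 4 groups. In 4 of these 104 sets of 5 values a mouse lay further from the rest than Dixon's 95% critical value allows, and chance does so in about 1 in 20 sets. Filtered-air mouse 5 was the highest for Ggps1, at 9.66 with the next at 9.37, and for Ebp, at 14.36 with the next at 14.07. Filtered-air mouse 1 was the lowest for Fdft1, at 14.30 with the next at 15.02. Metformin mouse 1 was the lowest for Npc1, at 9.95 with the next at 10.21, and still lay above every filtered-air mouse.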

How the results depend on the processing

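Counts of members called are given here beside the alternatives that moved them by over 1.5 times, and the causes were not tested unless the alternative's own construction shows them. In PM2.5 against filtered air the count was 1, and 2 with the filter at the 60th percentile, quantile normalization, the negative-control covariate or without combined arrays 2 and 4, 3 with array weights and 5 in the compared groups alone. In metformin against filtered air it was 8, and 15 with array weights or 2 with the covariate. In the combined group against PM2.5 it was 1, and 0 with no filter, median centring, the covariate, without combined arrays 2 and 4 or in the compared groups alone, or 2 with the filter at the 60th percentile, quantile normalization or the trend and robust options. In the combined group against metformin it was 3, and 5 with quantile normalization or array weights and 0 in the compared groups alone. In the combined group against filtered air it was 8, and 0 with the covariate and 4 without combined arrays 2 and 4. In the interaction it was 0, and 2 with array weights.

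Leaving out 1 mouse at a time gave counts of 1 to 2 for PM2.5 against filtered air, 4 to 14 for metformin against filtered air, 0 to 2 for the combined group against PM2.5, 1 to 7 against metformin, 5 to 12 against filtered air, and 0 to 1 for the interaction. The interaction call, Npc1, came without combined mouse 5. No called member changed sign in these fits. The 3 calls of Mvd stood in all 10 fits without 1 mouse, and that of the combined group missed the threshold with the covariate (limma adjusted p = 0.0553). No paired analysis was possible because the labels share no replicate numbers between groups. Mean signals near background limit Mvd and Mvk, and signals of some mice below 8.36 limit Pmvk, Fdps, Sqle and Lbr. All comparisons are limited by 5 mice per group.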
